A study of Mus musculus with 6 samples.

Results

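The variable (V) segments of the immunoglobulin light chain loci were examined in splenic naive B cells of mice lacking TET2 and of wild-type mice. The 103 segments described here were chosen by measured values: every gene name beginning with Igkv or Iglv whose counts summed to at least 10 over the 6 libraries. They comprise 100 kappa segments (Igkv) and 3 lambda segments (Iglv), of 107 such names and of 41053 gene names in all. The rule used the summed counts only. The abundance of the segments is therefore given as a description, and the comparison of genotypes is the measure that the choice did not use.

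RNA was sequenced in 3 libraries of the genotype TET2 Knock-Out and 3 of the genotype TET2 Wild-Type, numbered 2, 3 and 4 in each, from naive B cells of the spleen of C57BL/6 mice that received no treatment. The labels give neither the age and sex of the animals, the kind of Tet2 allele, nor the sorting markers, and do not say that the libraries are from different mice. The p-values below therefore rest on the spread of these 6 libraries, part of which may be technical. Each library held 35101788 to 45401781 counts, of which 66106 to 96230 were assigned to the light chain V segments. Levels are given as CPM, a count relative to the library size after TMM scaling. Tet2, the targeted gene, was at 59.4, 64.8 and 50.04 CPM in the 3 knockout libraries and at 74.7, 83.3 and 56.9 CPM in the wild-type libraries. The groups overlapped (log2 change −0.30, SE 0.14, edgeR adjusted p = 0.408). Counts covered every exon and the labels do not say which exons the knockout lacks, so this level is no check of the labels.

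A light chain is built in developing B cells by joining a V segment to a J segment, which is then spliced to a constant region. Kappa chains use the Igkv, Igkj and Igkc genes and lambda chains the Iglv, Iglj and Iglc genes, and a mature B cell usually expresses a single light chain. Kappa V segments lie in either orientation relative to the J segments: those in the same orientation are joined by deletion and those in the opposite orientation by inversion of the intervening DNA. In a naive B cell population, the V counts thus reflect how often each segment was joined and kept, and how strongly each rearranged gene is transcribed. In bulk RNA, fewer cells using a segment and less RNA per cell cannot be told apart.

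The sequences below are the 3′ ends of the segments on which the results turn, where the V segment meets the J segment. Each is the last 60 bases of the segment's GENCODE vM21 transcript on GRCm38, in the direction of transcription. Capitals run from the codon of the conserved cysteine to the segment's end, which is the germline start of the third complementarity-determining region, the most variable loop of the chain. The lambda segments lie on chromosome 16 on the minus strand, Iglv3 at chr16:19241207-19241266, Iglv1 at chr16:19085017-19085076 and Iglv2 at chr16:19260401-19260460. They are shown because they include the most abundant segment of all.
Iglv3: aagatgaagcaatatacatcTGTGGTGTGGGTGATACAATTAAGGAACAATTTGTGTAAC
Iglv1: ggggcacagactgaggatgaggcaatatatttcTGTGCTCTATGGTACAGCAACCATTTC
Iglv2: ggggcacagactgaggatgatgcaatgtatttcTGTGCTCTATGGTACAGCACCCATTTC

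Among kappa segments, Igkv10-96 (chr6:68631963-68632022, minus strand) and Igkv6-15 (chr6:70406469-70406528, minus strand) were the most abundant, and Igkv5-39 (chr6:69900424-69900483, minus strand) had the smallest p of the genotype comparison.
Igkv10-96: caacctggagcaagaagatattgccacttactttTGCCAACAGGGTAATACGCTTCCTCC
Igkv6-15: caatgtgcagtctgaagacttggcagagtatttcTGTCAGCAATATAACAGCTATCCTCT
Igkv5-39: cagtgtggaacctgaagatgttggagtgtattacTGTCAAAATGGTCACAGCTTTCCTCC

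Family Igkv3 was the kappa family whose share differed most between the genotypes. Its shown members lie on the plus strand, Igkv3-4 at chr6:70672318-70672377, Igkv3-5 at chr6:70663836-70663895, Igkv3-7 at chr6:70607977-70608036, Igkv3-10 at chr6:70573171-70573230 and Igkv3-12 at chr6:70518790-70518849.
Igkv3-4: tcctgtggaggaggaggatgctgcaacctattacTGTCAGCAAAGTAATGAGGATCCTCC
Igkv3-5: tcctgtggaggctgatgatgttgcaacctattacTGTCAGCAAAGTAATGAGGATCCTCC
Igkv3-7: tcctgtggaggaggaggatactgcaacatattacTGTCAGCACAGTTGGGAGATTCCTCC
Igkv3-10: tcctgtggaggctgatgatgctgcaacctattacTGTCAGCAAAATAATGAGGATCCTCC
Igkv3-12: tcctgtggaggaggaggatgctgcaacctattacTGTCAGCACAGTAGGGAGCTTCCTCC

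The capital part has 26 bases in the kappa segments shown, 27 in Iglv1 and Iglv2 and 40 in Iglv3. Igkv3-4 and Igkv3-5 carry the same capital part, and 17 of the 102 members in which the cysteine codon was found share theirs with at least 1 other member. Over the whole transcript Iglv1 and Iglv2 were 96.7% identical. Within family Igkv3 the identity of a pair ranged from 86.1% to 98.3%, highest for Igkv3-5 with Igkv3-10, and it was 96.7% for Igkv3-7 with Igkv3-12. In all, 51 of the 103 members had another V gene at least 95% identical to them. Counts of such near copies are uncertain, since the counting could have split or dropped fragments that fit more than 1 segment.

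A few segments took a large part of the light chain V counts (the plot of the 15 most abundant segments). Iglv3, a lambda V segment, held the largest mean share, 7.22% of all Igkv and Iglv counts. It made up 6.74%, 6.64% and 6.24% in knockout libraries 2, 3 and 4 and 8.86%, 8.14% and 6.68% in the wild-type libraries. The wild-type library numbered 4 fell within the knockout range, and wild-type libraries 2 and 3 stood above it. Next came Igkv10-96 with a mean of 5.11%, Igkv6-15 with 4.49%, Iglv1 with 4.43%, Igkv1-117 with 3.62% and Igkv19-93 with 3.48%. The 15 most abundant segments together held 50.4% to 54.3% of the counts of a library, and the same 15 led when counts were taken per exon base. At the other end, 20 members had a mean share under 0.1%.

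**Figure D1:**
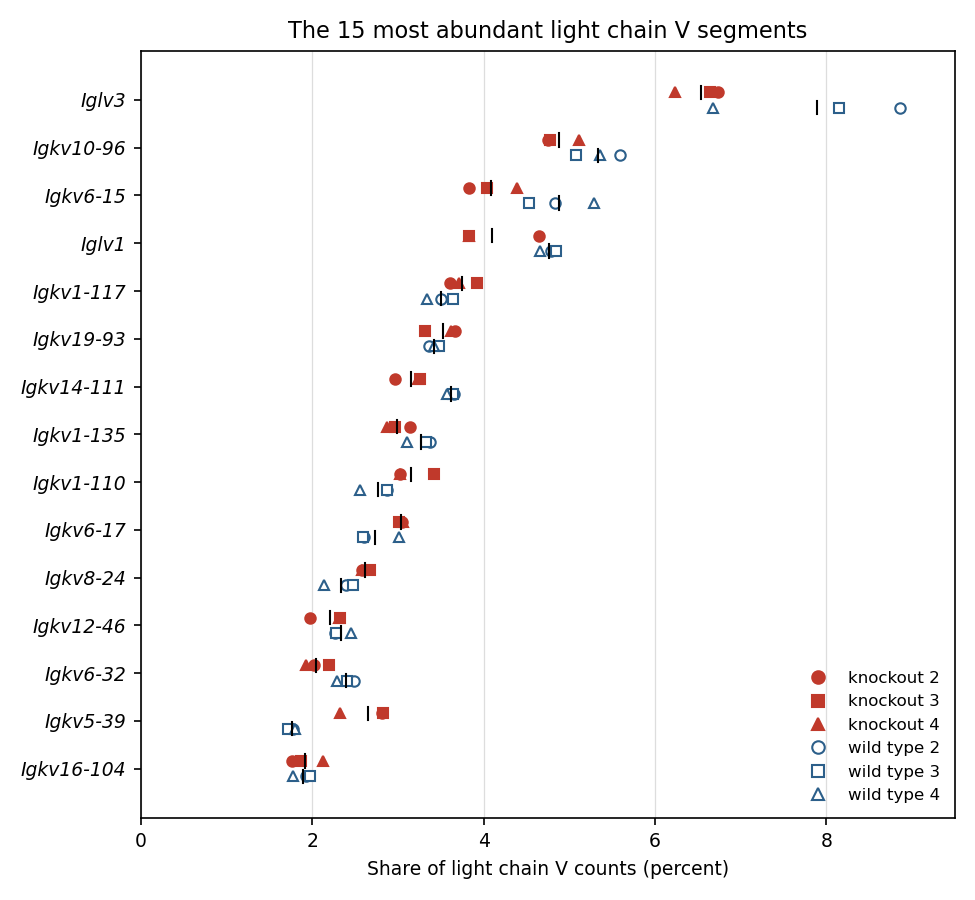
Share of all light chain V counts (percent, x axis) of the 15 segments with the largest mean share, with 1 point per library, filled for knockout and open for wild type, and a black tick at each genotype's mean. Iglv3 was highest in the wild-type libraries numbered 2 and 3 at 8.86% and 8.14%, and Igkv5-39 was higher in all 3 knockout libraries than in any wild-type library.

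Counting error sets a limit on each share. The widest 95% Wilson interval of any segment's share in a library was ± 0.217 percentage points, and it was at most ± 0.127 points for shares of 1% to 3%. Such intervals cover counting error only. At the lower end, Igkv1-131 had 22 counts in all and none in the wild-type library numbered 4, where the 3 counts that a count of 0 allows would be a share of 0.00434% (the 95% Wilson bound is 0.00555%). The other members with the fewest counts were Igkv8-26 with 51 and Igkv1-115 with 70. Just below the threshold of 10 were Igkv17-134 with 9 counts, Igkv1-35 with 8 and Igkv13-87 with 7, and Igkv2-95-2 had none.

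Lambda V segments held a smaller mean share of the light chain V counts in knockout, with overlapping groups. Lambda made up 13.02%, 11.999% and 11.41% of the V counts in the knockout libraries and 15.13%, 14.71% and 12.69% in the wild-type libraries. The means were 12.1% ± 0.812 and 14.2% ± 1.30 (SD, n = 3 each), and wild type 4 lay below knockout 2. The lambda V level was 245 ± 40.7 CPM in knockout against 246 ± 18.1 CPM in wild type, a difference smaller than the spread between libraries, while the kappa V level was 1762 ± 167 CPM and 1505 ± 227 CPM, again with overlapping groups. Within the lambda counts Iglv3 made up 51.8% to 55.3% in knockout and 52.6% to 58.5% in wild type. Iglv2 was a larger part of them in each knockout library (12.5%, 12.8% and 11.8%) than in any wild-type library (9.86%, 11.7% and 10.6%). The groups nearly met, at 11.83% in knockout 4 and 11.68% in wild type 3. Counting error was not computed for these parts, and Iglv2 is a near copy of Iglv1, which makes its counts uncertain.

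The constant region genes, which lie outside the rule, gave a second measure of kappa against lambda. Iglc2, the only lambda constant gene named in the table, made up 14.35%, 13.96% and 15.47% of the Igkc and Iglc2 counts in knockout and 18.87%, 16.62% and 16.47% in wild type. Every knockout library lay below every wild-type library, with means of 14.6% ± 0.780 and 17.3% ± 1.34 (SD, n = 3 each; exact two-sided permutation p = 0.1, the smallest that 3 against 3 libraries allow). Igkc was at 3965, 3776 and 3333 CPM in knockout against 2690, 3072 and 3478 CPM in wild type, a log2 change of 0.26 that did not pass the threshold (edgeR adjusted p = 0.378). For Iglc2 the log2 change was −0.03 (edgeR adjusted p = 0.908). These are shares of counts and not of cells, since the table names no other lambda constant gene and Iglc2 has 606 exon bases against 323 for Igkc.

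**Figure D2:**
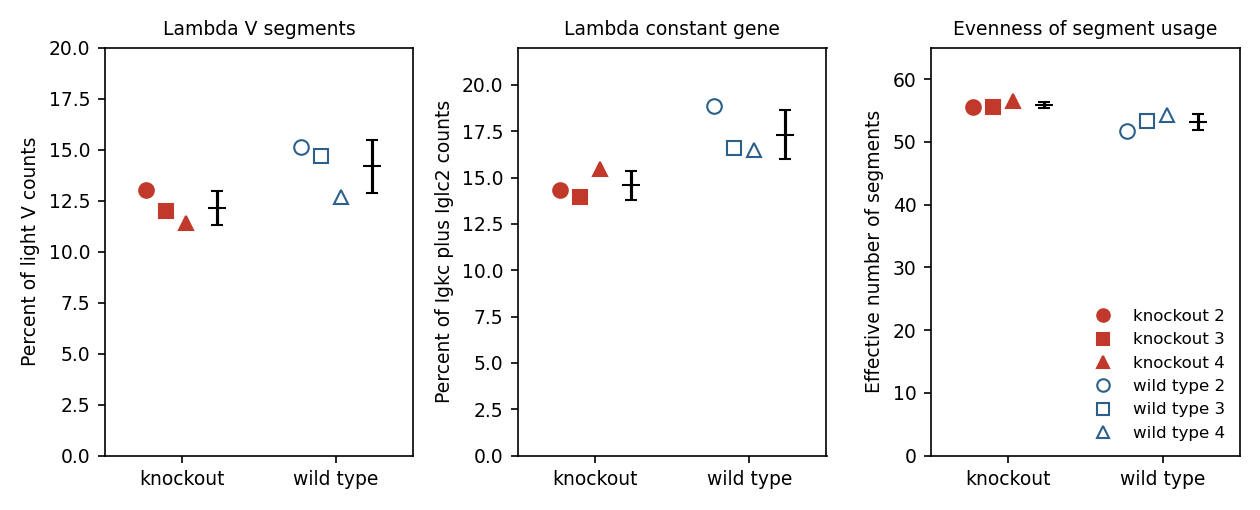
Lambda share of the light chain V counts (left, percent), Iglc2 share of the Igkc plus Iglc2 counts (middle, percent) and effective number of V segments (right), with 1 point per library and the mean ± SD (n = 3) in black. The constant gene share was 13.96% to 15.47% in knockout and 16.47% to 18.87% in wild type, and the effective number was 55.6 to 56.5 in knockout and 51.8 to 54.4 in wild type.

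Segment usage was slightly more even in knockout. The effective number of segments, the exponential of the Shannon entropy of the shares, is the number of equally used segments that would give the same spread. It was 55.6, 55.6 and 56.5 in knockout and 51.8, 53.4 and 54.4 in wild type, with no overlap. In each knockout library 15 segments were needed to reach 50% of the counts, and 13 or 14 sufficed in wild type. Without Iglv3 the difference in the effective number was 1.78 in place of 2.71.

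Most kappa segments had a somewhat higher level in knockout, but no segment passed the threshold of an adjusted p under 0.05 by edgeR's quasi-likelihood test over all genes. Of the 102 members tested, 0 were called, beside 0.404% of all 13604 genes tested. Without adjustment, 28 members had a p under 0.05 with a higher level in knockout (27.5% of those tested, beside 7.85% of all genes) and 0 with a lower level (beside 5.51% of all genes). DESeq2 called 5 members higher, Igkv5-39, Igkv3-4, Igkv3-7, Igkv3-10 and Igkv3-12 (beside 1.45% of all genes), and limma-voom called 0 (beside 0.331% of all genes).

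The log2 change was above 0 in 87 of the 102 tested members, beside 48.8% of all genes, and its median was 0.22 against −0.01 over all genes. The knockout libraries lay wholly above the wild-type libraries in CPM for 27 members (26.5%, beside 10.2% of all genes) and wholly below for 0 (beside 8.28% of all genes). All 27 were kappa segments. Segments with a mean share of at least 1% had a median log2 change of 0.20, and rarer ones 0.23. Other genes of the antigen receptor had changes of like size that were not called either: Ighm, the heavy chain of IgM, had a log2 change of 0.24 (edgeR adjusted p = 0.383), and its signalling partners Cd79a and Cd79b 0.22 each (edgeR adjusted p = 0.392 and 0.376). The 95 tested heavy chain V segments had a median of 0.28, with 15 wholly above in CPM (15.8%, beside 10.2% of all genes). Among them 29.5% had an unadjusted edgeR p under 0.05 with a higher level in knockout. That share was 27.5% among the light chain V members and 7.85% among all genes.

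The libraries numbered 4 bear on these levels. The level of all light chain V counts was 2185, 2055 and 1780 CPM in knockout 2, 3 and 4 and 1497, 1781 and 1975 CPM in wild type 2, 3 and 4, so the libraries numbered 4 stood in the opposite order to those numbered 2. With the libraries numbered 2 and 3 only, 41 members were called higher (40.2%, beside 13.6% of all genes), and without wild type 4 alone 10 were (9.8%, beside 4.53% of all genes). Leaving out knockout 4 gave 1 call, Igkv5-39 (beside 0.424% of all genes). In another fit the libraries numbered 4 were given a batch term of their own, although the labels name no batch. With this term 2 members were called higher, Igkv3-10 (edgeR adjusted p = 0.0371) and Igkv1-88 (edgeR adjusted p = 0.0423), beside 2.59% of all genes.

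Relative to the light chain V total, the shifts between segments were smaller and went in either direction. The share was wholly higher in knockout for 23 members (22.5% of those tested, beside 2.01% of all genes scaled the same way) and wholly lower for 9 (8.82%, beside 7.75% of all genes). On this scale the median log2 change of the members was 0.03 and that of all genes −0.21, so most other genes were shifted downward by the scaling. No member was called in an edgeR fit scaled to this total. In all 60 segments gained and 43 lost mean share, and the gains came to 6.23 percentage points. Family Igkv3 gave 30.0% of the gained points and Igkv5-39 14.3%, and Iglv3, Igkv6-15 and Iglv1 together gave 45.3% of the lost points.

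Grouped by the V family number, the 103 members fell into 22 families, 19 kappa and 3 lambda. Igkv6 held the largest share, with 12.99%, 13.56% and 14.04% in knockout and 14.65%, 14.24% and 15.51% in wild type, and its knockout libraries lay wholly below. Igkv1 followed with a mean of 11.2%, Igkv4, which has the most members (27), with 8.53%, and Igkv8 with 8.08%. Igkv3 went the other way from Igkv6, with 7.91%, 6.84% and 6.86% in knockout and 4.96%, 5.07% and 5.98% in wild type. The family shares did not overlap between the genotypes in 7 of 22 families. They were higher in knockout for Igkv2, Igkv3, Igkv5 and Igkv17 and lower for Igkv6, Igkv10 and Iglv1. Of these, Igkv17 differed little, at 3.24% and 3.16%. The Iglv1 groups nearly met, with knockout 2 at 4.646% and wild type 4 at 4.661%. Among all genes scaled to the light chain V total, 2.01% were wholly higher in knockout and 7.75% wholly lower. These percentages are for genes and not for families, so they give no direct background for the 7 of 22 families. The family shares of a library add up to a fixed total, so gains in some families lower the shares of others.

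**Figure D3:**
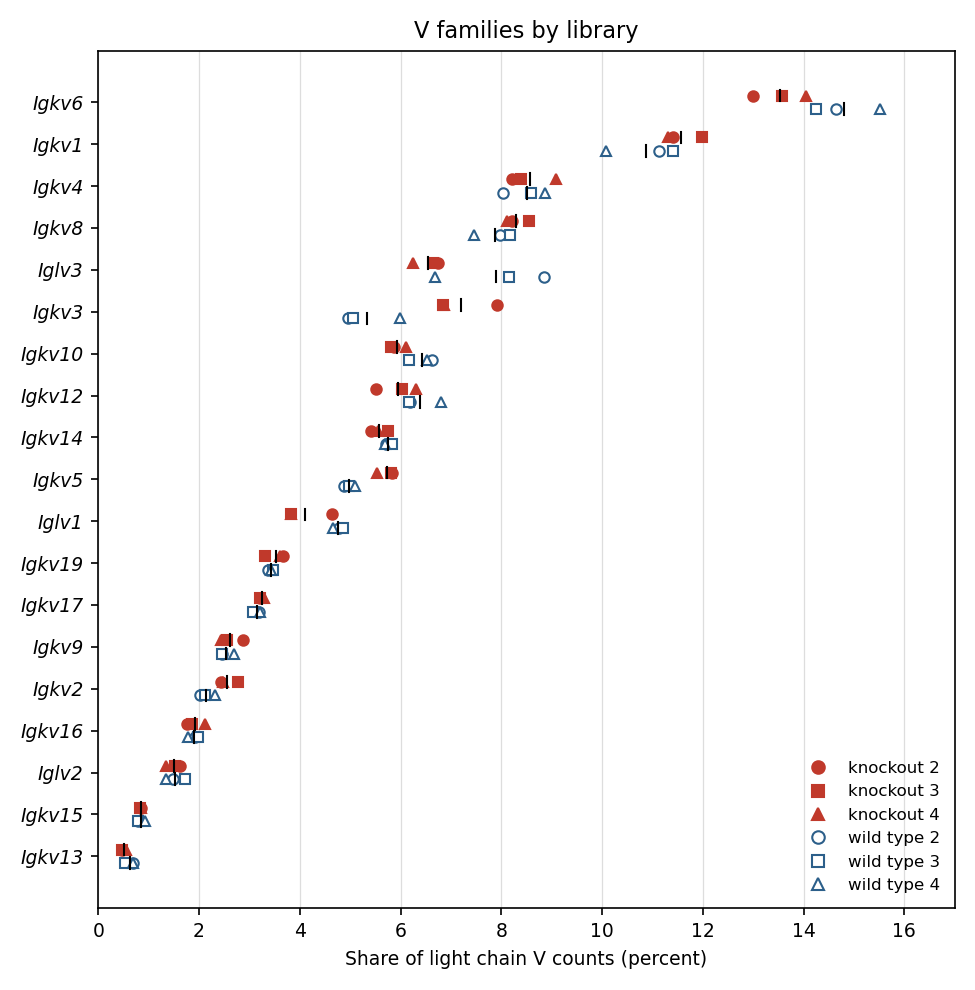
Share of all light chain V counts (percent, x axis) of each V family with a mean share of at least 0.5%, with 1 point per library, filled for knockout and open for wild type, and a black tick at each genotype's mean. Family Igkv3 lay at 6.84% to 7.91% in knockout and 4.96% to 5.98% in wild type, and family Igkv6 at 12.99% to 14.04% and 14.24% to 15.51%.

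Family Igkv3 had the largest difference in share between the genotypes, with no member called by edgeR. The summed level of its 9 segments was 173, 140 and 122 CPM in knockout against 74.2, 90.2 and 118 CPM in wild type, so knockout 4 and wild type 4 lay close together. The mean share of the family was 7.20% ± 0.613 in knockout and 5.34% ± 0.564 in wild type (SD, n = 3 each), a ratio of 1.35. All 9 log2 changes were above 0, beside 85.3% of the tested members and 48.8% of all genes. Their median was 0.57 beside 0.22 over all members. The level was higher with an unadjusted edgeR p under 0.05 for 6 of the 9, beside 27.5% of the tested members and 7.85% of all genes. In CPM the groups were apart, with knockout higher, for 5 of the 9 and overlapped for 4. Of the tested members 26.5% were apart in this way, and of all genes 10.2%. The family was singled out by its share in these same libraries, so these counts describe it and give no separate support. Some of its segments are near copies, so the 9 are not separate measurements. The 9 segments lie together in the part of the locus nearest to the J segments, 18.4 to 203.7 kb before Igkj1, and all have the orientation of Igkj1.

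Igkv3-4, the most abundant member of the family, was at 45.1, 36.2 and 31.7 CPM in knockout against 15.3, 21.6 and 29.8 CPM in wild type. The groups did not overlap, and knockout 4 and wild type 4 were neighbours. Its log2 change was 0.77 (SE 0.22, edgeR adjusted p = 0.220, DESeq2 adjusted p = 0.028). Igkv3-2, the member next to it in abundance, was at 40.5, 32.7 and 31.1 CPM in knockout against 16.9, 23.0 and 30.5 CPM in wild type (log2 change 0.57, SE 0.19, edgeR adjusted p = 0.278).

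Igkv3-7 was at 18.4, 15.8 and 11.4 CPM in knockout against 6.27, 7.14 and 10.6 CPM in wild type (log2 change 0.93, SE 0.23, edgeR adjusted p = 0.157). Its near copy Igkv3-12 was at 14.8, 14.5 and 11.5 CPM in knockout against 6.57, 7.41 and 11.0 CPM in wild type (log2 change 0.71, SE 0.20, edgeR adjusted p = 0.202). In both segments wild type 4 stood well above the other wild-type libraries and just under knockout 4. Igkv3-10 was at 19.6, 17.6 and 15.6 CPM in knockout against 11.1, 12.9 and 13.5 CPM in wild type (log2 change 0.50, SE 0.12, edgeR adjusted p = 0.165). Its near copy Igkv3-5 was at 26.1, 16.8 and 14.8 CPM in knockout against 13.7, 13.6 and 16.2 CPM in wild type, and the groups overlapped. Knockout 2 stood apart for Igkv3-5, whose highest share was 1.46 times the median of the other libraries. The other members of the family, Igkv3-1, Igkv3-3 and Igkv3-9, had groups that overlapped in CPM.

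**Figure D4:**
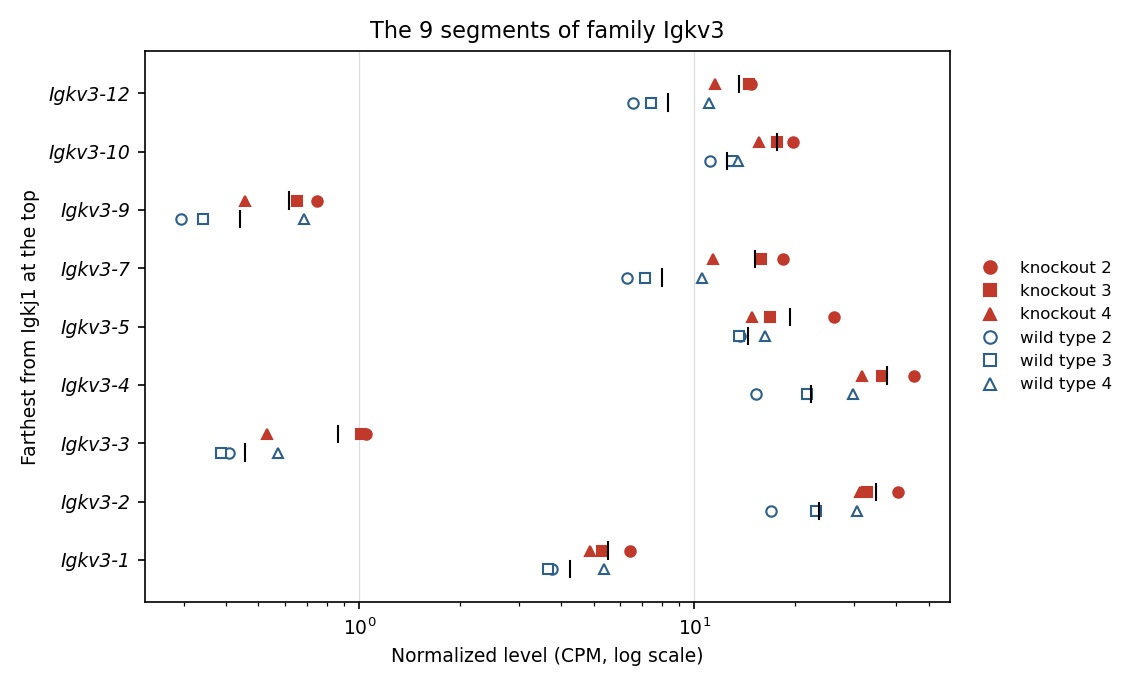
Level of each of the 9 segments of family Igkv3 in CPM (x axis, log scale), ordered by distance from Igkj1 with the farthest at the top, with 1 point per library, filled for knockout and open for wild type, and a black tick at each genotype's mean. Groups were apart, with knockout higher, for 5 segments, beside 10.2% of all genes. In Igkv3-4, 1 of the 5, the lowest knockout library was at 31.7 CPM and the highest wild-type library at 29.8 CPM.

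Igkv5-39 was the single segment with the smallest p. It was at 61.6, 58.1 and 41.3 CPM in knockout against 26.6, 30.5 and 35.6 CPM in wild type, with no overlap. The log2 change was 0.80 (SE 0.16, edgeR adjusted p = 0.107, DESeq2 adjusted p = 0.000475). As a share it was 2.82%, 2.82% and 2.32% in knockout and 1.77%, 1.71% and 1.80% in wild type, so the wild-type libraries lay close together and knockout 4 was the lowest of the knockout libraries. The other 4 members of family Igkv5 together held 3.07% in knockout and 3.22% in wild type, with overlapping groups, so the higher share of the family rested on Igkv5-39. Igkv5-39 lies 821.9 kb before Igkj1 in the opposite orientation.

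Outside these, the kappa segments with a mean share of at least 0.1% and the smallest p were Igkv1-110 and Igkv1-133. Igkv1-110 had a log2 change of 0.40 (SE 0.11) and Igkv1-133 of 0.49 (SE 0.14, edgeR adjusted p = 0.219), and both had groups apart in CPM. Igkv2-109 was at 21.1, 23.4 and 17.9 CPM in knockout against 12.03, 13.9 and 17.4 CPM in wild type (log2 change 0.53, edgeR adjusted p = 0.219). The log2 change with the largest size, 1.22, was that of Igkv8-26, which had few counts (SE 0.48, edgeR adjusted p = 0.333).

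No segment was lower in knockout beyond the overlap of the groups in CPM. Of segments with a lower level in knockout, Igkv12-38 had the smallest p, with 3.93, 3.30 and 3.16 CPM in knockout against 3.78, 3.91 and 5.54 CPM in wild type (log2 change −0.34, SE 0.20, edgeR adjusted p = 0.480). Igkv9-123 had a log2 change of −0.27, Igkv13-84 of −0.13, Igkv4-92 of −0.08, Igkv6-15 of −0.07 and Iglv3 of −0.05, none of them called. As shares, Igkv6-15 was 3.83%, 4.04% and 4.39% in knockout and 4.84%, 4.53% and 5.29% in wild type, without overlap. Iglv1 and Igkv14-111 were likewise lower in share without overlap, at 4.10% and 3.15% in knockout and 4.76% and 3.62% in wild type. For Iglv1 the groups nearly met, with knockout 2 at 4.646% and wild type 4 at 4.661%.

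Position and orientation along the kappa locus were compared next. The 39 kappa members in the orientation of Igkj1 had a median log2 change of 0.36, and 36 of them were above 0. The 61 in the opposite orientation had a median of 0.18, with 50 of the 60 tested above 0. Segments in the same orientation held 46.1%, 45.3% and 44.5% of the kappa V counts in knockout and 42.8%, 43.0% and 42.7% in wild type, with no overlap. Without family Igkv3 they held 40.7%, 40.7% and 39.8% in knockout and 39.3%, 39.4% and 38.5% in wild type, still without overlap. The difference in means was then 1.33 percentage points in place of 2.43. Within 500 kb of Igkj1, segments outside family Igkv3 held 14.48%, 14.79% and 15.34% of all kappa counts in knockout. In wild type they held 16.03%, 15.58% and 16.72%. Here the total still included Igkv3, unlike in the orientation shares just given, so the higher Igkv3 share in knockout lowers the knockout values. These shares therefore give no separate measure of the other segments. With Igkv3 that part of the locus held 23.1% and 22.3% on average, with overlapping groups. The bins farther out, up to 3200 kb, each had overlapping groups.

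**Figure D5:**
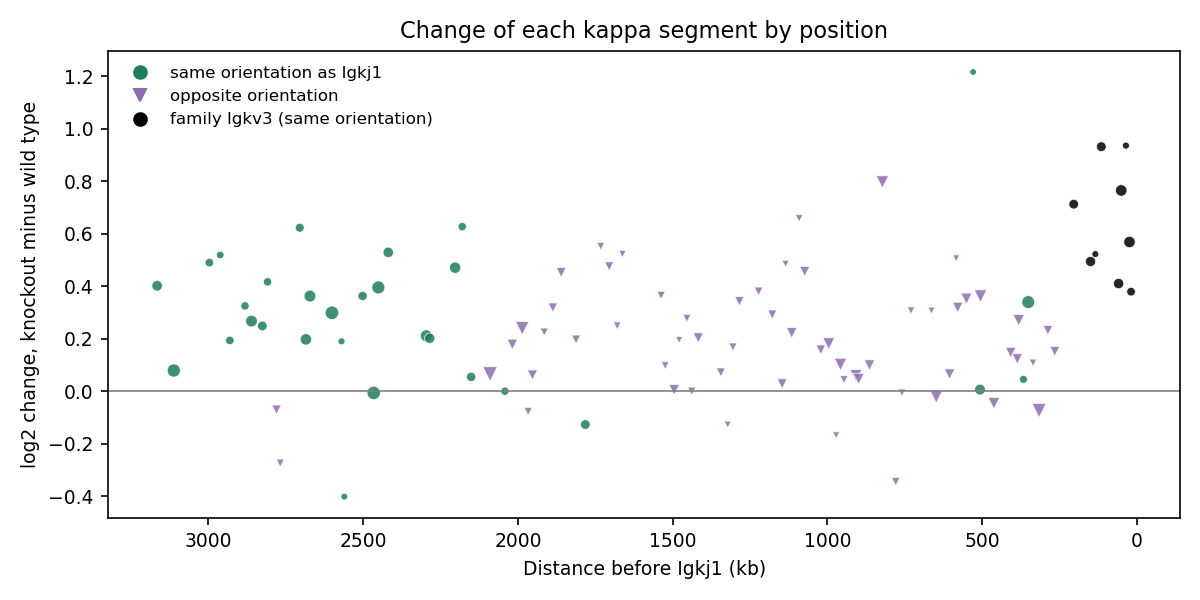
Log2 change of each tested kappa segment (y axis, knockout minus wild type) against its distance before Igkj1 in kb (x axis, farthest at the left), with symbols for orientation, larger symbols for larger mean shares and family Igkv3 in black. All 9 Igkv3 segments lie within 203.7 kb of Igkj1 and above 0.

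The J segments of the kappa locus gave a small difference of their own. Igkj1 made up 19.5%, 19.6% and 20.5% of the Igkj counts in knockout and 15.6%, 17.7% and 18.8% in wild type. Igkj3 made up 6.62%, 6.80% and 5.95% in knockout and 10.03%, 8.16% and 7.24% in wild type. Neither pair of groups overlapped as shares, and neither gene was called by edgeR or DESeq2. Igkj3, with a log2 change of −0.37 (edgeR adjusted p = 0.343), was called lower with the batch term (edgeR adjusted p = 0.0353). The named J segments have 36 to 43 exon bases. These are shares of counts, and how far they reflect the J segment joined in each chain was not tested.

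Whole profiles of segment shares differed more between genotypes than within them. The distance between libraries is the percentage of counts that would have to move between segments to turn the shares of 1 library into those of the other. It was 5.55% to 8.05% for the 9 pairs of different genotype, 3.75% to 4.74% for the 3 knockout pairs and 3.03% to 5.52% for the 3 wild-type pairs. Knockout 4 and wild type 4 were the nearest pair of different genotype, at 5.55%, and wild type 4 was farther from the other wild-type libraries (5.52% and 5.35%) than those were from each other (3.03%).

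Genes that build or regulate light chains were read from the same edgeR fit, and 0 of them were called, beside 0.404% of all genes. Of the recombinase genes, Rag2 was at 0 in every library and Rag1 was under 0.06 CPM. Of the end-joining genes, which seal the V to J junction, 9 of 9 were tested and 0 called. Of 19 tested factors that act on light chain loci and V promoters 0 were called. Groups overlapped in CPM for 14 of them and were apart for 5, Spib, Ikzf1, Pou2af1, Foxo1 and Nfkb1. Each of the 5 was wholly higher in knockout, as were 10.2% of all genes tested. Pou2af1, the B cell coactivator of octamer-bound factors at V promoters, was at 919, 877 and 966 CPM in knockout against 683, 785 and 803 CPM in wild type (log2 change 0.28, edgeR adjusted p = 0.249). With the batch term it was called, as the only one of these factors (edgeR adjusted p = 0.0453). Spib, an Ets factor of B cells, had a log2 change of 0.21 (edgeR adjusted p = 0.325), and Irf4, which acts at light chain enhancers, of −0.22 (edgeR adjusted p = 0.413).

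Markers of the labelled cell type and of other cells were set beside these results, and edgeR called 0 in any of these lists, beside 0.404% of all genes. The summed level of 7 B cell markers was 26210 to 30380 CPM in knockout against 23190 to 24770 CPM in wild type. This separation rested on Cd74, the invariant chain of MHC class II, the only marker of the 7 whose groups did not overlap (log2 change 0.31, edgeR adjusted p = 0.267, DESeq2 adjusted p = 0.0202). Without Cd74 the sums overlapped, at 10270 to 12100 CPM in knockout against 9839 to 10500 CPM in wild type. In the T cell, myeloid, NK and erythroid lists DESeq2 called Lyz2 alone (DESeq2 adjusted p = 0.0481). Lyz2 was wholly lower in knockout, at 5.975 against 9.005 CPM on average. Cd3d and Klrb1c were wholly higher in knockout, at 0.425 and 0.382 CPM on average against 0.214 and 0.186 CPM. Groups of the other markers in these lists overlapped. Of 7 precursor B cell markers, Igll1 and Rag2 were at 0 in every library. Cd93 was at 17.8, 19.0 and 8.59 CPM in knockout against 18.7, 17.1 and 11.9 CPM in wild type, with overlapping groups. The others of the list were at most at 0.385 CPM.

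The plasma cell markers, 13 in the table, summed to 652 to 683 CPM in knockout against 578 to 680 CPM in wild type. Of the 12 tested, 7 had a log2 change above 0. Groups did not overlap for 2 of the 13, the IgG heavy chain genes Ighg3 and Ighg2b. Both were wholly higher in knockout, as were 10.2% of all genes tested. Ighg3 was at 8.42, 6.96 and 6.17 CPM in knockout against 4.46, 3.41 and 3.46 CPM in wild type. Its log2 change of 0.93 missed the threshold by edgeR (adjusted p = 0.0928) and passed by DESeq2 (adjusted p = 0.000249) and, in edgeR with the batch term, at an adjusted p of 0.0099. Ighg2b, with a log2 change of 1.46, missed it by edgeR (adjusted p = 0.215) and DESeq2 (adjusted p = 0.135) and passed in edgeR with the batch term, at an adjusted p of 0.0294. Sdc1 and Xbp1 did not pass in any of these fits, and their log2 changes were −0.12 and −0.007. Those of Irf4, Prdm1 and Ighg1 were likewise below 0, at −0.22, −0.21 and −0.17. Igj, the joining chain of secreted IgM and IgA, had overlapping groups, at 11.1 to 32.9 CPM in knockout against 4.91 to 13.3 CPM in wild type, as had Igha, the IgA heavy chain, at 0.202 to 24.2 CPM and 0.228 to 0.750 CPM.

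The sum of 7 B-1 cell markers was 52.4 to 75.2 CPM in knockout against 41.7 to 50.6 CPM in wild type, without overlap. Spn, Cd300lf and Plscr1 had log2 changes of 0.47, 0.54 and 0.91 and were called by edgeR when the batch term was in the fit (adjusted p = 0.0246, 0.0186 and 0.0216). DESeq2 called Cd300lf (adjusted p = 0.00206) and Plscr1 (adjusted p = 0.000459). Other B-1 markers did not go this way: Cd5 had a log2 change of −0.04 and Bhlhe41 of −0.12, and Ctla4 was at 0.111 CPM in knockout against 0.252 CPM in wild type on average, with knockout wholly lower. The 6 marginal zone B cell markers summed to 1811 to 2262 CPM in knockout and 1992 to 2495 CPM in wild type. Of these 6 markers 0 had a log2 change above 0, with a median of −0.14, and the groups of each overlapped. The part of such cells in the segment shares was not tested.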

How the data were processed

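The members, gene lists and tests were chosen with earlier results of these data known. Every value rests on the authors' deposited counts, which are whole fragments per gene name made by featureCounts 1.5.1 over exons of GENCODE vM3 for read pairs, with no option recorded for strand, for multi-mapped fragments or for fragments that overlap more than 1 gene, per the file headers. STAR 2.3.0e and the build GRCm38.p3 come from the submitters' processing notes. A V to constant fragment overlaps 2 genes, so its treatment affects V counts, and near-identical segments may lose or share fragments. The 6 count columns matching no sample were left out. Exon lengths, in bases, were deposited in the same table.

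Shares are a segment's percent of the Igkv plus Iglv counts of its library. CPM uses TMM library sizes. All 41053 gene names entered, 13604 passed filterByExpr (minimum count 10), and genotypes were compared by edgeR's robust quasi-likelihood F test (edgeR 4.0.16, R 4.3.3) with Benjamini-Hochberg adjustment over all genes tested and a threshold of 0.05. Sums over members have no test. Annotation and sequences are from GENCODE vM21 (98 V genes, 5 V pseudogenes), and identity is the percent of the shorter transcript matched in a global alignment with free ends (Biopython). No member shared exon bases with another gene name.

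Named segments were the 15 with the largest mean share; all Iglv; among members with a mean share of at least 0.1%, the 6 with the smallest p in each direction; the 5 with the largest ratio of the highest library to the median of the other 5, among those reaching 1% in a library; the 3 members just above and the 3 segments just below 10 counts; the light chain constant genes; and lists of light chain pathway genes and cell markers. Igkv1-88, the other segments of family Igkv3 and Igkv2-95-2 were named after their values were seen. Alternatives were other scalings, filters, thresholds and member sets, DESeq2 1.42.0, limma-voom (limma 3.58.1), a replicate block, a batch term (libraries 4 against 2 and 3), the libraries numbered 2 and 3 only, and leaving out each library.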

Additional observations from a re-analysis of the deposited data

How the results depend on the processing

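The number of members called by edgeR was 0 and stayed 0 with other scalings and filters, limma-voom and the replicate block. It was 5 with DESeq2, 2 with a batch term (libraries 4 against 2 and 3), 41 with the libraries numbered 2 and 3 only, and 0 to 10 on leaving out 1 library. Over all genes 55 were called, 183 with scaling to the light V total, 349 with DESeq2, 599 with the batch term, 3307 with the libraries numbered 2 and 3 only, and 17 to 900 on leaving out 1 library, the last without wild type 4. With the replicate block 85 genes and 0 members were called. The labels neither pair the libraries nor name a batch. Deviations of same-numbered libraries correlated at 0.075, 0.278 and 0.448 for numbers 2, 3 and 4; the last was the highest of all 9 pairs, and not every library correlated best with its own number. The log2 change of Igkc was 0.43 with the libraries numbered 2 and 3 only (edgeR adjusted p = 0.00225), and the difference in the inverse Simpson index was 4.12. The differences in lambda share and in the share of family Igkv3 kept their direction in every alternative run.

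Segments with changes near 0 turned direction. With the libraries numbered 2 and 3 only, the log2 change was 0.046 for Iglc2, 0.033 for Iglv3, 0.12 for Igkv6-15, 0.19 for Iglv1, 0.14 for Igkv14-111, 0.16 for Igkv6-32 and 0.049 for Igkv13-84, and the share of family Igkv4 differed by −0.013 points. With scaling to the light V total it was −0.13 for Igkv10-96, −0.014 for Iglv2, −0.13 for Igkv1-135 and −0.084 for Igkv12-46. With limma-voom Igkv14-111 was at 0.0040, and as a share of kappa counts Igkv4 differed by −0.16 points. The cause was not tested. On leaving out 1 library in turn, the log2 change ranged from −0.072 to 0.025 for Iglc2, from −0.145 to 0.055 for Iglv3, from −0.187 to 0.113 for Iglv1 and from −0.182 to 0.094 for Igkv6-15. It ranged from −0.0067 to 0.168 for Igkv10-96, from −0.103 to 0.080 for Igkv14-111, from −0.027 to 0.184 for Igkv1-135, from −0.017 to 0.242 for Igkv12-46 and from −0.097 to 0.095 for Igkv6-32. The ranges were −0.240 to 0.042 for Igkv13-84, −0.184 to 0.041 for Igkv4-92 and −0.797 to 0.035 for Igkv1-115, and −0.198 to 0.245 points for the share of family Igkv4. Few counts limit Igkv8-26, Igkv1-115 and Igkv1-131.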
